A study of Homo sapiens with 2 samples.

Results

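Potassium channel transcripts were compared between 2 cultures of Huh7 cells, a long-established line from a human hepatocellular carcinoma. One culture had been stably transduced, by lentivirus, with a short hairpin RNA (shRNA) that targets CD24, a small surface glycoprotein, and the other with a non-target control hairpin. Both were grown in the same serum-containing medium, and the total RNA of each went onto 1 Affymetrix array, which leaves 1 array per group. The sequence of the hairpin, and whether a culture was a pool of transduced cells or 1 clone, were not given in the sources used here. Members were all probe sets that the platform annotation pairs with 1 gene symbol starting with KCN, the stem given to potassium channel subunits. They numbered 184 of the 41091 probe sets that name 1 gene, and 97 of 19775 genes. A further 5 probe sets name a KCN gene together with another gene and were left out.

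Potassium channels let potassium ions cross a membrane selectively and so set the membrane potential. Voltage-gated channels open when the membrane depolarises. Inward rectifiers (KCNJ) pass potassium more readily into than out of the cell and respond to ATP, G proteins or other ligands. Two-pore channels (KCNK) carry background leak, and the calcium-activated family opens on a rise of intracellular calcium. In hepatocytes such channels take part in control of cell volume and in bile formation.

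The deposited values are log2 values from which the mean of the 2 arrays had been taken off each probe set. The 2 values of a probe set are therefore equal in size and opposite in sign, and only the difference between the arrays remains, not the level. All differences below are on the log2 scale, CD24 shRNA minus control, and a gene is given by averaging its probe sets. The error given is the SD over the probe sets of a gene, which does not cover the spread between cultures. No difference has a replicate check and no p-value exists. Pooled over all 10523 genes with several probe sets, the SD within a gene was 0.27, and smaller differences are within that error. Scaling the arrays on their 18 hybridisation control probe sets would add 0.08 to every difference. CD24 itself was lower in the array labelled CD24 shRNA on all 6 of its probe sets, with a mean difference of -1.37 ± 0.38 (SD, 6 probe sets). All 6 have names ending in _s_at or _x_at, and such probe sets can match several transcripts.

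Of the 97 potassium channel genes, 2 were higher by 2-fold or more in the CD24 shRNA array and 0 were lower by as much. Both of the higher genes, KCNJ8 and KCNJ16, encode inward rectifiers. Among all genes, 0.632% were higher and 0.485% lower by that criterion, so 2.06% of potassium channel genes stand beside 0.632%, on a count of 2. With the arrays scaled on the hybridisation controls, 165 genes of the whole array were higher and 78 lower, against 125 and 96 without, and the potassium channel counts stayed at 2 and 0. At a 1.5-fold threshold the higher genes were again KCNJ8 and KCNJ16, and 1 gene, KCNT2, was lower. The backgrounds at that threshold were 2.63% higher and 2.38% lower, so the members' shares of 2.06% and 1.03% were below them. Of the 184 probe sets, 5 were higher by 2-fold or more (1.01% of all probe sets were) and 1 was lower (0.601%). The 5 are the KCNJ8 and KCNJ16 pairs and 1 of KCNC4, and the lower one belongs to KCNT2. The median over the 97 genes was -0.03, against 0 over all genes. After scaling on the hybridisation controls it lay at 0.04, against 0.08 over all genes.

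**Figure D1:**
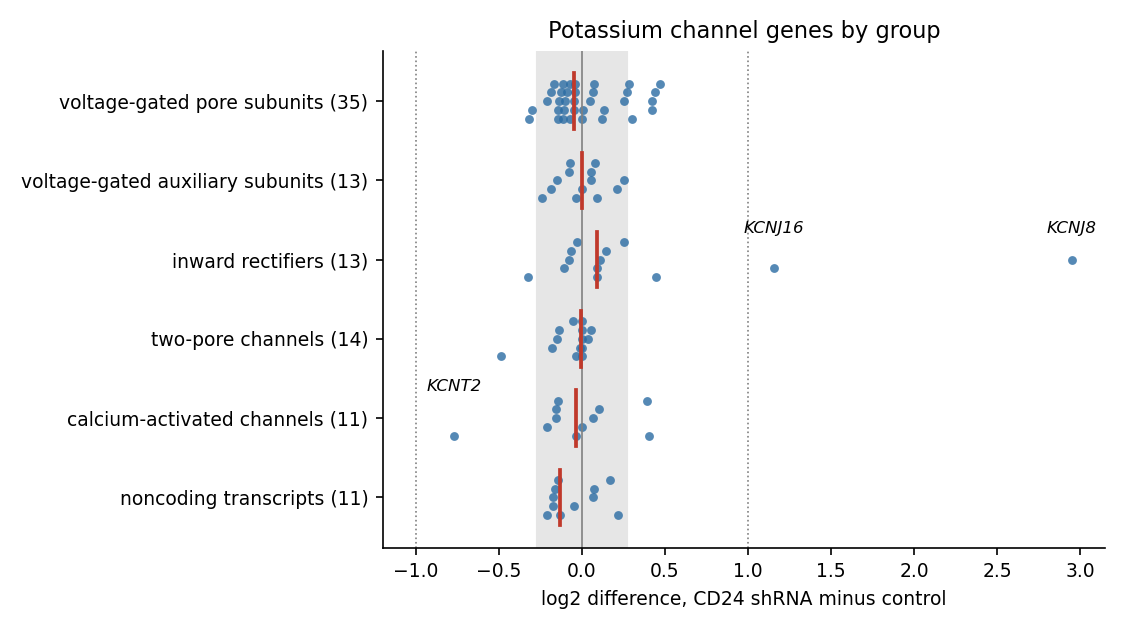
Each point is 1 potassium channel gene, placed on the horizontal axis by its log2 difference (CD24 shRNA minus control, mean over probe sets), with groups on the vertical axis and their numbers of genes in brackets. Red bars are group medians, the grey band is the pooled SD between probe sets (0.27 on either side of 0) and dotted lines mark 2-fold; points are spread vertically only for legibility. KCNJ8 and KCNJ16 lie beyond 2-fold among the inward rectifiers, and KCNT2 lies at -0.77.

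Most members lay within the error between probe sets. The gene mean was smaller in size than 0.27 for 80 of 97 potassium channel genes (82.5%), against 76.0% of all genes. Of the 49 member genes with several probe sets, 27 had probe sets on both sides of 0 (55.1%), against 51.6% of all such genes. Many probe sets were dim. The digits of the file show, for some probe sets, that the log2 value of the dimmer array was below 4, near the background of the array. They did so for 72 of 184 potassium channel probe sets (39.1%), against 25.4% of all probe sets that name 1 gene. This reveals only part of the dim probe sets, and placement below 4 is not stated for every gene below. Another 17 members' probe sets (9.24%) had 0 on both arrays, against 5.53% overall. Differences of small size also recurred: 109 of 184 members' probe sets (59.2%) had a size that at least 10 probe sets of the array share to 5 decimals, against 38.3% overall. No probe set of KCNJ8, KCNJ16 or KCNT2 was among these. The share below 4 was highest in the voltage-gated pore subunits (47.5% of 59 probe sets) and lowest in the two-pore channels (24.0% of 25).

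The 250 bases upstream of the annotated start are shown for the 2 genes past 2-fold and for ABCC9, which lies next to KCNJ8 and encodes a partner of its product. The sequences are RefSeq's for GRCh38.p14, written 5′ to 3′ along the strand of the gene. KCNJ8 is at chr12:21774707-21774956 and ABCC9 at chr12:21941427-21941676, both on the minus strand. KCNJ16 is at chr17:70074975-70075224 on the plus strand, which is the most upstream of the 3 starts listed for it. Capitals mark matches to the motifs searched on both strands.
KCNJ8: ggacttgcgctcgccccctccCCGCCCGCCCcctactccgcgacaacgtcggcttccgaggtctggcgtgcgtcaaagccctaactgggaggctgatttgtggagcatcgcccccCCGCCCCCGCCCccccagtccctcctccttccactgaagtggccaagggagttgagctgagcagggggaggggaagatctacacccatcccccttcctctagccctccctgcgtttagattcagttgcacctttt
ABCC9: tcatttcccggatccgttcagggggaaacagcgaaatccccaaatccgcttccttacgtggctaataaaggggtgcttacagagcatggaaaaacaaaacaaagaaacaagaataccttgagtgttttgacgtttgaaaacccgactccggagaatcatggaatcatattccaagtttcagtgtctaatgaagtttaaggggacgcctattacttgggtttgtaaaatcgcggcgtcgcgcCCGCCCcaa
KCNJ16: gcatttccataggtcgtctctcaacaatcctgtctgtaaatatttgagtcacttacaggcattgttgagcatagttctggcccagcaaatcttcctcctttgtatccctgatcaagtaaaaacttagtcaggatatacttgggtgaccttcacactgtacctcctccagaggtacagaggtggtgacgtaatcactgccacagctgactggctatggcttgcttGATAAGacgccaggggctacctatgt

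Those motifs were GGGCGG (the GC box), TATAAA (the TATA box), GGAATG (bound by TEAD factors), GATAAG (bound by GATA factors), CACGTG (an E-box) and the CArG box of serum response factor. The KCNJ8 window held 4 matches to GGGCGG, all on the opposite strand and 2 of them overlapping, and its GC content was 64.8%. The ABCC9 window held 1 match to GGGCGG and had a GC content of 46.0%, and the KCNJ16 window held 1 match to GATAAG at 46.4% GC. The windows of the other KCNJ16 starts, not shown, held no match to any of the motifs. Median GC content was 64.2% over the members' windows and 58% over all windows. GGGCGG occurs in 42.6% of all 35116 promoter windows of this length and in 49.0% of the 104 windows of 67 potassium channel genes. GATAAG occurs in 5.65% of all windows and 5.77% of the members' windows. None of the other motifs was found in the 3 windows shown. A CArG box is in 1.16% of all windows and 1.92% of the members', and the windows of KCNIP4 and KCNK3 hold the 2 matches. A match is a description of these letters and shows no binding.

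The inward rectifiers held the largest differences. KCNJ8 encodes the pore of an ATP-sensitive potassium channel found in vascular smooth muscle and pericytes. One probe set read -1.47 in the control and 1.47 with CD24 shRNA, and the other -1.48 and 1.48. The probe sets agreed closely: the difference was 2.95 ± 0.01 (SD, 2 probe sets), or 7.73-fold higher with CD24 shRNA, the 3rd highest of 19775 genes. Neither KCNJ8 probe set was placed below 4. KCNJ16 encodes a pH-sensitive subunit that works in heteromers, chiefly with the product of KCNJ10. Its first probe set read -0.61 in the control and 0.61 with CD24 shRNA, and its other read -0.55 and 0.55. The difference was 1.16 ± 0.08 (SD, 2 probe sets), or 2.23-fold higher, rank 81 from the highest, and the latter probe set was placed below 4 in its dimmer array. RNA came from whole cultures, so fewer cells with a transcript and less transcript per cell cannot be told apart for these or any other gene.

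The partners of both channels showed no difference of that size. ABCC9, the sulfonylurea receptor subunit that assembles with KCNJ8, had a difference of 0.03 ± 0.16 (SD, 5 probe sets), between -0.15 and 0.22, and 3 of them were placed below 4. ABCC8, the other sulfonylurea receptor, lay at -0.16 ± 0.23 (SD, 2 probe sets), and KCNJ11, the second pore subunit of ATP-sensitive channels, at 0.09 on 1 probe set. KCNJ10, the partner of KCNJ16, lay at -0.08 ± 0.11 (SD, 2 probe sets), 1 of which was tied at 0 and the other placed below 4. KCNJ15, a further possible partner of KCNJ16, lay at 0.14 ± 0.16 (SD, 5 probe sets).

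Among the other 11 inward rectifiers no gene reached 1.5-fold (of all genes 2.63% were higher, 2.38% lower), and they ran from -0.33 to 0.45. KCNJ14 was the highest of them at 0.45 on 1 probe set. KCNJ6, a G-protein-gated subunit, was the lowest at -0.33 ± 0.05 (SD, 2 probe sets), with both probe sets below 0. KCNJ1, the kidney secretory channel ROMK, lay at -0.11 ± 0.15 (SD, 2 probe sets). KCNJ2, a classical strong rectifier of muscle, lay at 0.09 on 1 probe set placed below 4. KCNJ5, a G-protein-gated subunit of atrium and adrenal cortex, lay at 0.11 with 6 probe sets between -0.16 and 0.30. In all, 8 of 13 inward rectifiers lay above 0, and 10 did after scaling on the hybridisation controls. Over all 19775 genes, 9770 lay above 0, and 12974 did after that scaling. The group median was 0.09, while its mean, which KCNJ8 pulls up, was 0.36.

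**Figure D2:**
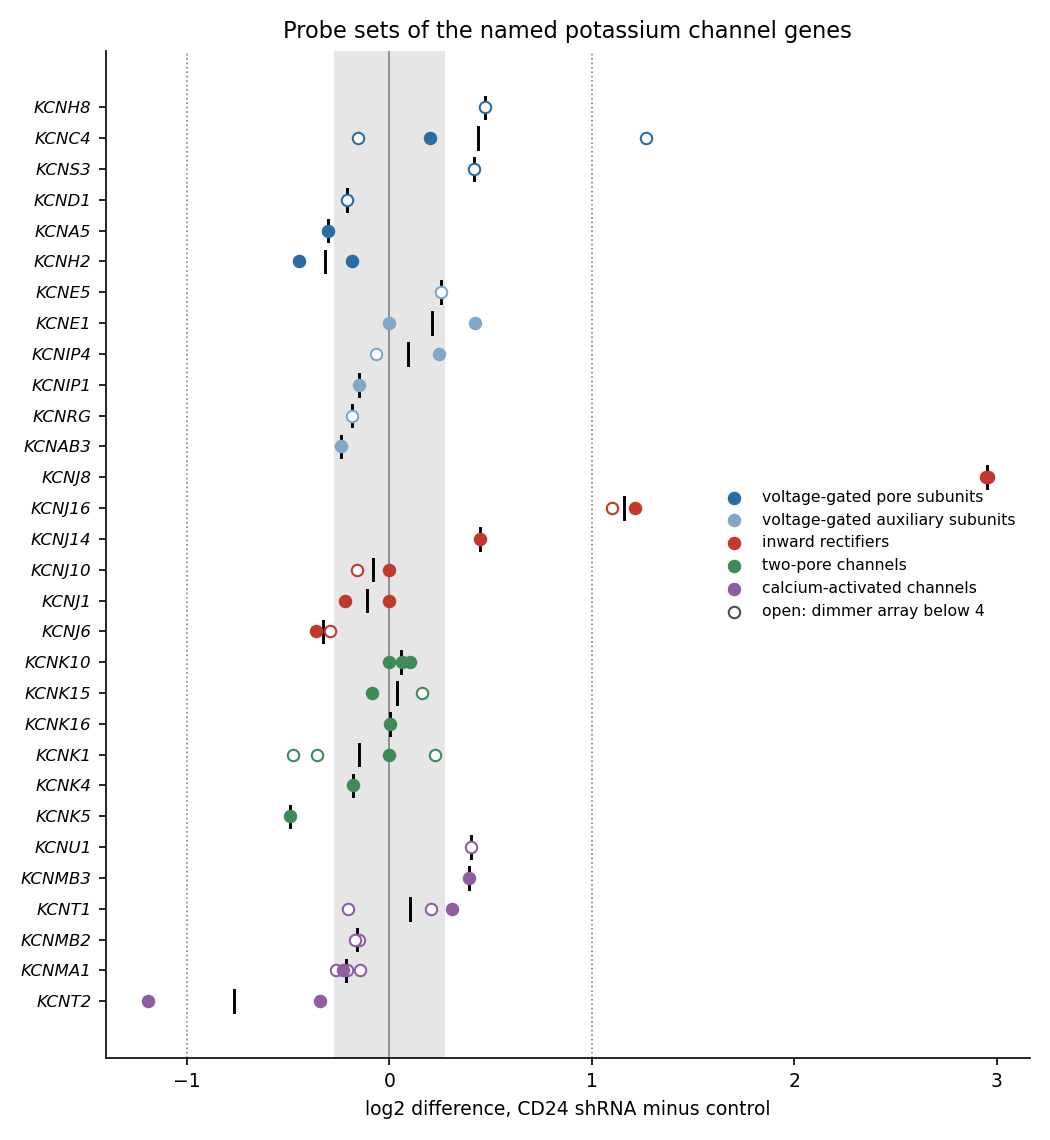
Points are single probe sets of the 30 named potassium channel genes on the log2 difference axis (CD24 shRNA minus control), coloured by group, with black bars for gene means; open points were placed below 4 in the dimmer array, the grey band is the pooled SD and dotted lines mark 2-fold. The KCNJ8 probe sets coincide near 2.95, those of KCNJ16 lie at 1.10 and 1.21, and 1 probe set of KCNC4 and 1 of KCNT2 stand apart from the others of the same gene.

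At 1.5-fold, 2.63% of all genes were higher and 2.38% lower. None of the 35 voltage-gated pore subunits reached that fold on average, with gene means between -0.32 and 0.47. The median was -0.05, with 20 genes below 0 and 14 above, against 9402 and 9770 of all 19775 genes. After scaling on the hybridisation controls the group median was 0.03, with 14 below and 21 above. All genes then had a median of 0.08, with 6801 below 0 and 12974 above. KCNC4, a fast channel subunit of the Shaw type, was the least certain of them. Its 3 probe sets read -0.16, 0.20 and 1.27, which gave 0.44 ± 0.74 (SD, 3 probe sets). The highest of these and the lowest were both placed below 4. Without probe sets whose names end in _s_at or _x_at, which can match several transcripts, KCNC4 lay at 0.02. KCNH8, an ELK-type subunit, was the highest of the group at 0.47 on 1 probe set, placed below 4. KCNS3, a silent subunit that modifies KCNB channels, and KCNA10 each lay at 0.42 on 1 probe set placed below 4.

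At the other end of the voltage-gated group, KCNH2, the hERG channel of cardiac repolarisation, lay at -0.32 ± 0.19 (SD, 2 probe sets), its probe sets at -0.45 and -0.18. KCNA5, a delayed rectifier of atrial and vascular muscle, lay at -0.30 and KCND1, an A-type subunit, at -0.21, each on 1 probe set. That of KCND1 was placed below 4. By family, 7 of 8 KCNH genes (EAG, ERG and ELK types) lay below 0, and 7 still did after scaling on the hybridisation controls. Of all 19775 genes, 9402 lay below 0, and 6801 did after that scaling. Most other families with several genes had genes on both sides of 0. Of the 14 KCNH probe sets, 7 were placed below 4, and 12 had a size that at least 10 probe sets share. The 7 KCNH genes below 0 ran from -0.32 to -0.10, and KCNH2 alone among them exceeded 0.27 in size. All 3 KCNS genes lay above 0 with either scaling, at 0.42, 0.30 and 0.05. KCNQ1, whose channel with KCNE subunits serves many epithelia, lay at 0.12, with its 2 probe sets at 0 and 0.25. KCNQ5 lay at 0.28 ± 0.15 (SD, 2 probe sets), and KCNQ3, its partner in neuronal M-current, at -0.09 with probe sets from -0.45 to 0.11.

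The 13 auxiliary genes of voltage-gated channels all lay within the pooled SD, between -0.24 and 0.25, with a median of 0.00. These are the cytoplasmic beta subunits (KCNAB), the single-span KCNE subunits, the calcium-binding KCNIP proteins and KCNRG, a regulator of channel assembly. KCNE5 was the highest at 0.25 on 1 probe set placed below 4, and KCNAB3 the lowest at -0.24 on 1 probe set. KCNE1, the partner of KCNQ1 in heart and inner ear, lay at 0.21 ± 0.30 (SD, 2 probe sets), with its probe sets at 0 and 0.42. KCNRG lay at -0.19 and KCNIP1 at -0.15, each on 1 probe set, and KCNIP4 at 0.09 ± 0.22 (SD, 2 probe sets). The KCNRG probe set was placed below 4. Of the 8 auxiliary genes with several probe sets, 7 had values on both sides of 0.

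The 14 genes of two-pore leak channels ran from -0.49 to 0.06, and 13 lay within the pooled SD. KCNK5, an acid-sensitive channel of epithelia, lay at -0.49 on 1 probe set, which can match several transcripts and was not placed below 4. KCNK4, a mechanosensitive channel, lay at -0.18 on 1 probe set. KCNK1 lay at -0.15 ± 0.32 (SD, 4 probe sets), 3 of them placed below 4, and KCNK10, KCNK15 and KCNK16 were the highest at 0.06, 0.04 and 0.00. Of the two-pore genes 4, each on 1 probe set, had 0 on both arrays: KCNK2, KCNK6, KCNK13 and KCNK17. Such a 0 means equal values on the 2 arrays and gives no level. It was found for 24.0% of the 25 two-pore probe sets, against 5.53% of all probe sets that name 1 gene. The median over the 14 two-pore genes was -0.01, or 0.07 after scaling on the hybridisation controls, when that over all genes was 0.08.

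KCNT2, a sodium-activated relative of the calcium-activated channels, was the lowest of all members. One probe set read 0.60 in the control and -0.60 with CD24 shRNA, and the other 0.17 and -0.17. The probe sets were both lower with CD24 shRNA but differed in size, at -1.19 and -0.34, so the gene mean was -0.77 ± 0.60 (SD, 2 probe sets), or 1.70-fold lower. Neither was placed below 4, and neither has a name ending in _s_at or _x_at. KCNT1, its paralogue, lay at 0.10 ± 0.27 (SD, 3 probe sets), 2 of them placed below 4.

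KCNMA1 encodes the pore of the large-conductance calcium-activated channel. Its 4 probe sets all lay below 0, from -0.26 to -0.15, with a mean of -0.21 ± 0.05 (SD, 4 probe sets); 3 of them were placed below 4, and the mean is smaller than the pooled SD. Of its 4 beta subunits, KCNMB3 lay at 0.39 on 1 probe set, KCNMB1, the smooth muscle subunit, at -0.16 ± 0.11, KCNMB2 at -0.16 ± 0.01 (SD, 2 probe sets each) and KCNMB4 at -0.14 ± 0.37 (SD, 3 probe sets). Both KCNMB2 probe sets were placed below 4. The small-conductance genes KCNN1 and KCNN3 lay at 0.07 and -0.03. KCNN4, the intermediate-conductance channel of blood cells and epithelia, had 0 on both arrays on its 1 probe set. KCNU1, a channel of sperm, lay at 0.40 on 1 probe set placed below 4. The group of 11 had a median of -0.03, or 0.04 after scaling on the hybridisation controls, when that over all genes was 0.08.

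The 11 noncoding transcripts named after these loci all lay within the pooled SD, between -0.21 and 0.22. KCNQ1OT1, an imprinted antisense transcript of the KCNQ1 locus, had probe sets from -0.68 to 0.13 and a mean of -0.17 ± 0.34 (SD, 5 probe sets). KCNJ5-AS1 was the highest at 0.22 and KCNQ1DN the lowest at -0.21, each on 1 probe set.

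The genes next to KCNJ8 and KCNJ16 were read from the RefSeq gene table. LDHB, which encodes the B subunit of lactate dehydrogenase, is the nearest protein-coding gene on one side of KCNJ8 and was higher too. Its probe sets differed by 0.91 and 1.92, a mean of 1.42 ± 0.72 (SD, 2 probe sets) or 2.67-fold higher. Both can match several transcripts, and the larger difference was on a probe set placed below 4. ABCC9 lies on the other side, at 0.03. Nearest to KCNJ16 are MAP2K6, a p38 MAP kinase kinase, at -0.65 ± 0.08 (SD, 2 probe sets) and KCNJ2 at 0.09. When the view was widened to 4 genes on each side, after these values were seen, LDHB was the only one of the 8 genes around KCNJ8 past 2-fold. The other 7 ran from -0.45 at GYS2, the liver glycogen synthase, to 0.39 at SPX, a peptide hormone precursor. Around KCNJ16, 0 of 7 measured neighbours passed 2-fold, and SOX9, a transcription factor of progenitor cells, was the lowest at -0.79 ± 0.15 (SD, 2 probe sets).

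**Figure D3:**
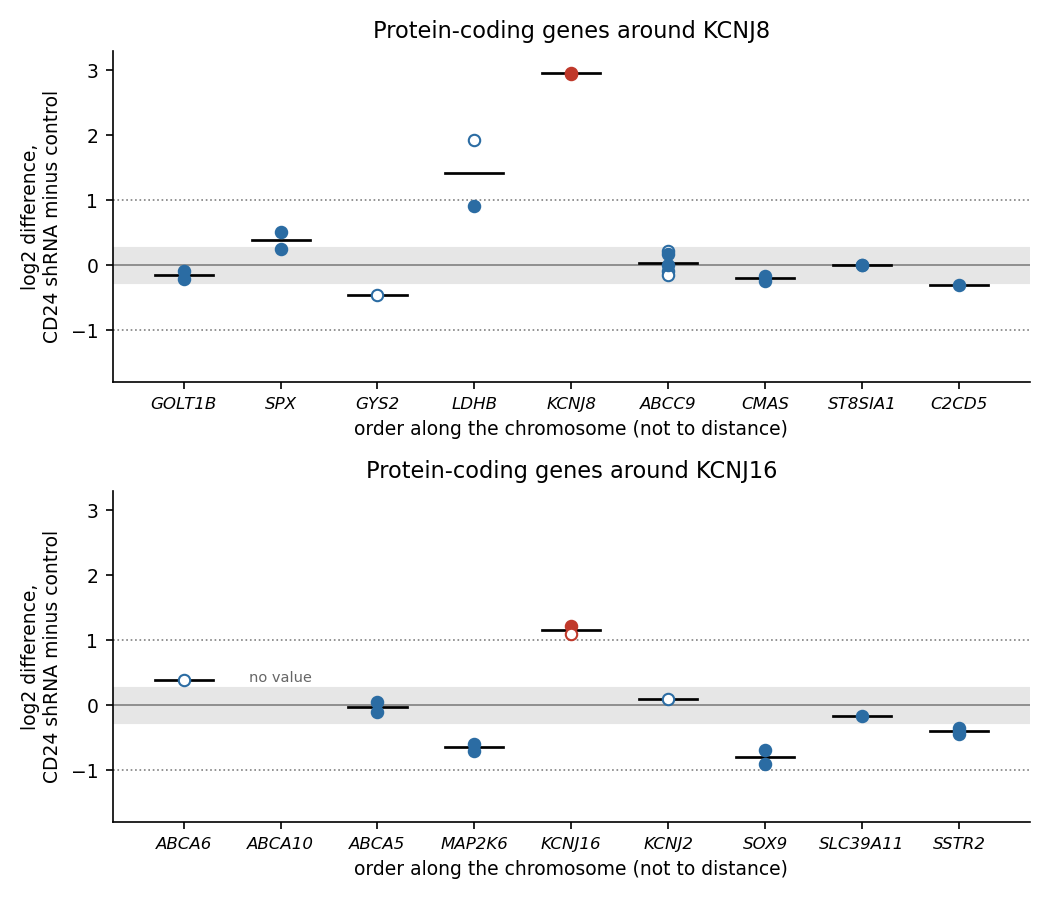
Protein-coding genes in chromosomal order around KCNJ8 (upper panel) and KCNJ16 (lower panel), not drawn to distance; points are probe sets, bars gene means and the vertical axis is the log2 difference (CD24 shRNA minus control). Open points were placed below 4 in the dimmer array, the grey band is the pooled SD, dotted lines mark 2-fold, and ABCA10 had no value; LDHB at 1.42 lies beside KCNJ8 at 2.95, whereas ABCC9 lies at 0.03.

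Other genes of potassium handling were given by lists. At 1.5-fold, 2.63% of all genes were higher and 2.38% lower, so a count of 0 in a short list is near that share. Of 15 measured partners of potassium channels outside the KCN symbols (of 20 listed), 0 reached 1.5-fold. They ran from -0.36 to 0.20. The lowest was AMIGO1, a partner of KCNB channels, at -0.36, followed by PIAS3 at -0.23 and LRRC38 at -0.21, each on 1 probe set. The highest was DLG1, a scaffold that clusters channels, at 0.20 ± 0.31 (SD, 7 probe sets). Of 14 measured genes of the sodium-potassium pump, the related proton pumps and their FXYD regulators, 0 reached 1.5-fold. FXYD3 lay at -0.52 ± 0.58 (SD, 2 probe sets), ATP1B4 at -0.45 ± 0.05 (SD, 2 probe sets), and FXYD4 and ATP4A at -0.42 and -0.40 on 1 probe set each. The widespread pump subunits ATP1B1 and ATP1B3 lay at 0.14 and 0.09.

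Of 14 genes of cation-chloride cotransport and its kinases, 2 were at least 1.5-fold lower and 0 higher. Of all genes, 2.38% were lower and 2.63% higher by that criterion, and a count of 2 is small. SLC12A8 lay at -0.96 on 1 probe set, or 1.95-fold lower, and WNK4, a kinase that controls the cotransporters, at -0.68 ± 0.19 (SD, 2 probe sets), with 1 of them placed below 4. WNK1 lay at -0.32 ± 0.32 (SD, 7 probe sets) and STK39, the kinase that WNK kinases activate, at -0.26. Of 6 genes listed for potassium channels and transport inside the cell, TMEM38B, a cation channel of the endoplasmic reticulum, was 1.75-fold lower. It lay at -0.81 ± 0.20 (SD, 3 probe sets) with all 3 below 0. The other 5 lay between -0.13 and 0.22. Among 52 other cation channels related in structure to voltage-gated potassium channels, 1 was at least 2-fold higher and 0 lower. The shares of all genes were 0.632% and 0.485%. The higher channel was SCN9A, a voltage-gated sodium channel of sensory neurons, at 1.34 ± 0.20 (SD, 2 probe sets) or 2.53-fold. Neither of its probe sets was placed below 4. TRPM4, a calcium-activated cation channel, lay at -0.56, HCN4, the pacemaker channel, at 0.52 ± 0.12 (SD, 2 probe sets), and TRPV2 at -0.45 ± 0.25 (SD, 2 probe sets). The median of these 52 was 0.07, beside -0.03 for the potassium channels and 0 for all genes.

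**Figure D4:**
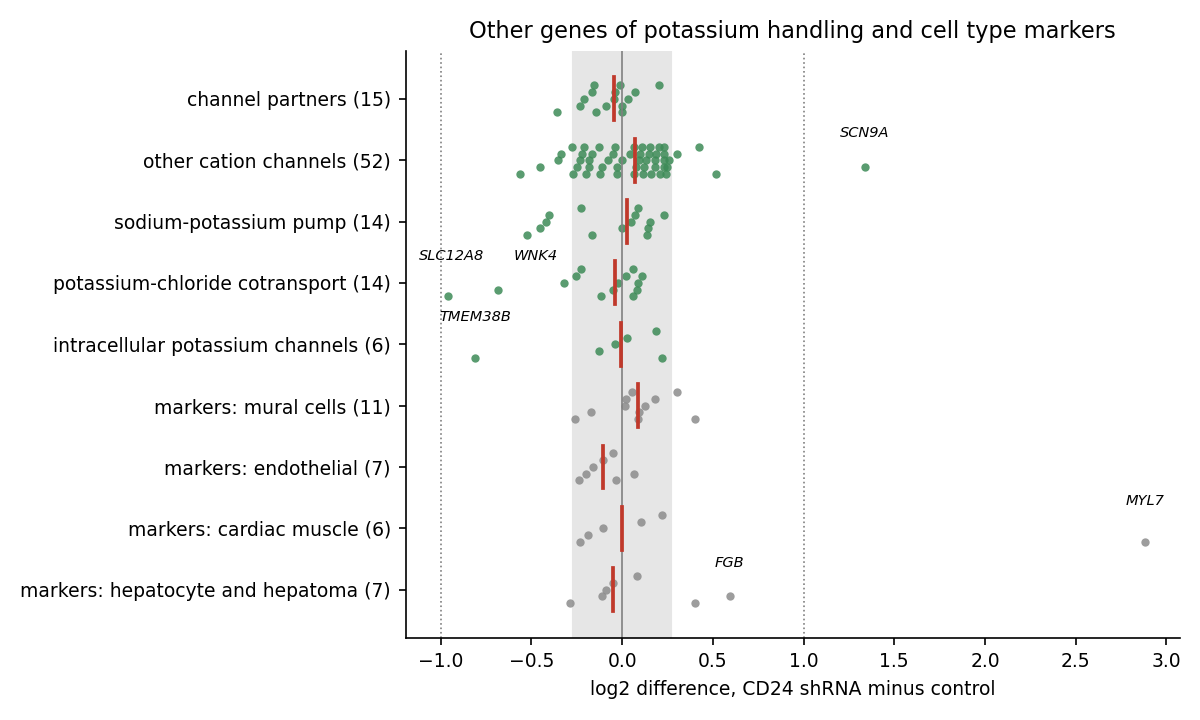
Points are genes of each list by their log2 difference (CD24 shRNA minus control), with red bars for medians, the grey band for the pooled SD and dotted lines at 2-fold; green lists concern potassium handling and related channels, grey lists are cell type markers, with numbers of genes in brackets. SCN9A at 1.34 and MYL7 at 2.88 lie beyond 2-fold, and SLC12A8, TMEM38B and WNK4 are the lowest.

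KCNJ8 and ABCC9 are also used as markers of pericytes, and several channels above are known from muscle, so marker lists were read beside them. Of 12 mural cell markers 11 were measured, and 0 reached 1.5-fold: they ran from -0.26 to 0.40, with a median of 0.09 and 9 above 0. Of all 19775 genes, 9770 lay above 0. After scaling on the hybridisation controls 9 of the mural markers lay above 0, with a median of 0.16. All genes then had 12974 above 0 and a median of 0.08. At 1.5-fold, 2.63% of all genes were higher and 2.38% lower, so 0 of 11 is near that share. PDGFRB, a defining receptor of pericytes, lay at 0.02 on 1 probe set, RGS5 at 0.09 ± 0.41 (SD, 6 probe sets), DES at -0.26 ± 0.30 (SD, 2 probe sets) and MCAM at 0.30 ± 0.36 (SD, 2 probe sets). ACTA2, smooth muscle actin, was the highest at 0.40 ± 0.52 (SD, 3 probe sets), with 1 probe set at 1.00 and 2 placed below 4. Of 6 cardiac muscle markers, MYL7, an atrial myosin light chain, lay at 2.88 on 1 probe set, and the other 5 lay between -0.23 and 0.22. The 7 endothelial markers lay between -0.24 and 0.07. Of 8 hepatocyte and hepatoma markers 7 were measured, and 0 of their 17 probe sets were placed below 4, against 7 of 10 for cardiac muscle, 8 of 16 for endothelium and 11 of 28 for mural cells. They ran from -0.29 at SERPINA1 to 0.59 at FGB. The part of any other cell type in the KCNJ8 difference was not tested.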

How the data were processed

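The authors deposited log2 values from RMA, as the submitters' processing notes name it, which background-corrects, quantile-normalises and summarises probes. Its software and version, and the step that centred each probe set on its 2 arrays, are unknown: not given in the sources used here. For every probe set the pair of values adds up to 0 within 1e-06. Of 54675 probe sets, 41091 name 1 gene in GEO's platform annotation, 1801 several and 11721 none here; 62 control probe sets were left out. The Entrez IDs of all 97 members were found in RefSeq's gene table (GRCh38.p14). Probe sets were averaged per gene, and a gene was counted at a 2-fold difference. Groups follow the symbols; KCNQ1DN was placed with the noncoding transcripts because RefSeq lists it as a long noncoding RNA.

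A probe set was placed below 4 where its values need binary steps finer than single-precision numbers of 4 or more have (15522 probe sets; 722 with rounded digits could not be read). Named genes were KCN genes past 1.5-fold, the 3 highest and 3 lowest of each group, genes with 3 or more probe sets spanning over 1, and up to 4 genes of each list; the other genes given were added after their values were seen. The members and lists were chosen with earlier results of these data known. Alternatives were other ways to combine or select probe sets, centring, and other fold thresholds. The calculations (Python 3.11.15, pandas 2.3.3, numpy 2.4.6) were tested on simulated data. With 1 array per group, the number of arrays limits the precision.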

Additional observations from a re-analysis of the deposited data

How the results depend on the processing

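The alternatives tried for the counts at 2-fold were the median over probe sets, the probe set with the largest difference, leaving out probe sets ending in _s_at or _x_at, leaving out those placed below 4, both centrings, and thresholds of 1.5-fold and 3-fold. The count of higher potassium channel genes was 3 with the largest probe set per gene, which adds KCNC4, and 1 at 3-fold, which leaves KCNJ8. It was 2 in the other 6 alternatives. Centring on the median over all genes, which is 0, leaves every value as it is and could give no other count. The count of lower genes was 1 with the largest probe set and 1 at 1.5-fold, KCNT2 in both, and 0 otherwise. Over all genes, 303 were higher and 209 lower with the largest probe set, 521 and 470 at 1.5-fold, and 32 and 17 at 3-fold. KCNC4 moved from 0.44 to 0.02 without probe sets ending in _s_at or _x_at. Single genes and group medians had only the median over probe sets, the omission of either kind of probe set, and the hybridisation scaling. Group medians were also set against group means. In these, no other of the 30 named potassium channel genes, and no group median, moved by more than the pooled SD of 0.27. A gene with 1 probe set could change only by the 0.08 of the scaling, so its result was fixed in advance. The largest probe set was not tried for single genes. It lies at 1.27 for KCNC4, -1.19 for KCNT2 (mean -0.77) and -0.48 for KCNK1 (mean -0.15). Neighbouring genes and genes of the other lists were not put through these alternatives. For LDHB, with a mean of 1.42, the probe set not placed below 4 differed by 0.91, which is under 2-fold. KCNJ8 ranged from 2.95 to 3.03 and KCNJ16 from 1.16 to 1.24. Without probe sets placed below 4, 72 of 97 members had a value. No paired analysis was possible because each group has 1 array.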
